A study of Mus musculus with 14 samples.

Results

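The 5 Ikaros family genes of the mouse, Ikzf1 (Ikaros), Ikzf2 (Helios), Ikzf3 (Aiolos), Ikzf4 (Eos) and Ikzf5 (Pegasus), were examined as places where other transcription factors bind. They are 5 of the 21631 protein-coding genes placed on autosomes and chromosome X. A peak belonged to a gene's locus if its midpoint fell inside the gene or no more than 50 kb from either end. The 5 loci held 202 of the 279955 peaks, and these fell into 80 of 121980 merged regions, a merged region being a run of peaks that touch or overlap by 1 bp or more. Of the 202 peaks, 117 (57.9%) lay in the Ikzf1 locus and 85 in the other 4 loci together.

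Binding was measured by ChIP-seq, in which DNA fixed to a protein is pulled down with an antibody and sequenced. All libraries came from the mouse line Hoxb8-FL, labelled as LMPP-like (lymphoid-primed multipotent progenitor) and grown in medium with serum, mercaptoethanol, estradiol and FLT3. The labels name no strain, age or mutation, and no treatment was applied. The groups were 13 factors with 1 library and 1 peak list each, namely Spi1 (PU.1), Cebpa, Cebpb, Fli1, Erg, Runx1, Lmo2, Tal1, Lyl1, Gfi1, Gfi1b, Meis1 and Gata2. A 14th library with rabbit IgG gave no list that was used here. Cells were fixed for 10 min in formaldehyde at 0.4% or 1%, and the sources used here do not say which strength belongs to which factor.

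With 1 library per factor there was no replicate error, so no test was run, and a second culture or antibody could give other peaks. The lists hold positions only, so read depth is unknown. A list with more peaks fills more loci (the lists run from 3217 peaks for Gata2 to 76378 for Spi1), and a missing peak says only that none was called. The results describe 1 cell line carrying Hoxb8, and transcript levels, by which its labelled cell type could be checked, are not part of these data. A peak near a gene does not show that the factor acts on that gene.

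Ikaros family proteins are zinc finger transcription factors. One group of fingers binds DNA, and another, near the end of the protein, joins family members into pairs. Ikaros is needed for lymphocytes to form and is known for priming lymphoid genes in multipotent progenitors. Helios and Eos are best known from regulatory T cells, Aiolos from B cell maturation, and Pegasus from human platelet formation. Ikaros can recruit the NuRD chromatin remodelling complex through its Chd4 subunit, and in humans the cereblon ubiquitin ligase destroys IKZF1 and IKZF3 when thalidomide-like drugs are present.

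Promoter sequence was at hand for Ikzf1 and Ikzf5 and for Rps26, a ribosomal protein gene beside Ikzf4. The windows are from RefSeq on GRCm38.p6 (mm10) and run from 250 bases before to 50 after a start site, 5′ to 3′ on the strand of the gene. They are shown because peaks lie on them. In the Ikzf1 window (chr11:11689927-11690226, + strand, the second of the annotated start sites) and the Rps26 window (chr10:128626457-128626756, - strand) capitals mark GGAA, the core of ETS factor motifs, or TTCC, the same letters on the other strand. In the Ikzf5 window (chr7:131410429-131410728, - strand) capitals mark TTGCGCAA, an 8-base palindrome that C/EBP factors are known to bind.
Ikzf1 second start: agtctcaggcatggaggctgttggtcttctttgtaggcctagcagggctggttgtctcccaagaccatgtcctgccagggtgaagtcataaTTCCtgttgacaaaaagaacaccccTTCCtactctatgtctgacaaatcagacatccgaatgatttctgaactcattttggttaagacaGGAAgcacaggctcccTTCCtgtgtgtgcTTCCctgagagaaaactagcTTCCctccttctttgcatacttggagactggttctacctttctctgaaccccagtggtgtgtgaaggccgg
Ikzf5: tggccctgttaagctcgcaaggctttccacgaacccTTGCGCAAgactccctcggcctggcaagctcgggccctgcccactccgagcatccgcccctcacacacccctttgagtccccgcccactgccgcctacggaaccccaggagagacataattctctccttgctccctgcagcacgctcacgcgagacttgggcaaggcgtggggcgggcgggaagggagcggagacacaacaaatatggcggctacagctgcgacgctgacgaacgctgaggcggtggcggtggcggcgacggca
Rps26: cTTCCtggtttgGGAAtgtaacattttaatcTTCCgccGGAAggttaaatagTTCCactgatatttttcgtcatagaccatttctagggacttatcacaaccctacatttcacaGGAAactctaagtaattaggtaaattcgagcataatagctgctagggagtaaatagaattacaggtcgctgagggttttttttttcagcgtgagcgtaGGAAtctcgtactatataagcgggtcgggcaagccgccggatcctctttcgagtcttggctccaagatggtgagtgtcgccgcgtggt

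Over the 65 combinations of locus and factor, 44 had a peak and 21 had none. Ikzf1 had the most peaks of the 5. Peaks of 13 factors lay in the Ikzf2 locus, of 12 in the Ikzf1 locus, of 8 in the Ikzf5 locus, of 6 in the Ikzf4 locus and of 5 in the Ikzf3 locus. Of all protein-coding genes, 5.99% had all 13, 21.9% had 12 or more, 58.5% had 8 or more, 69.4% had 6 or more and 73.3% had 5 or more. These shares were not matched for locus length, and matched ones are given below. The median gene had 9 factors and 21 peaks. By number of peaks the order was Ikzf1 with 117, Ikzf2 with 37, Ikzf4 with 22, Ikzf3 with 15 and Ikzf5 with 11. With no replicates, neighbours in either order could not be told apart by any spread. Both orders depended on the width of the locus. With 10 kb either side of the gene Ikzf5 had 3 factors and Ikzf3 had 4, and with 100 kb Ikzf5 had 8 and Ikzf3 had 9. With 100 kb Ikzf4 had 55 peaks and Ikzf2 had 42.

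**Figure D1:**
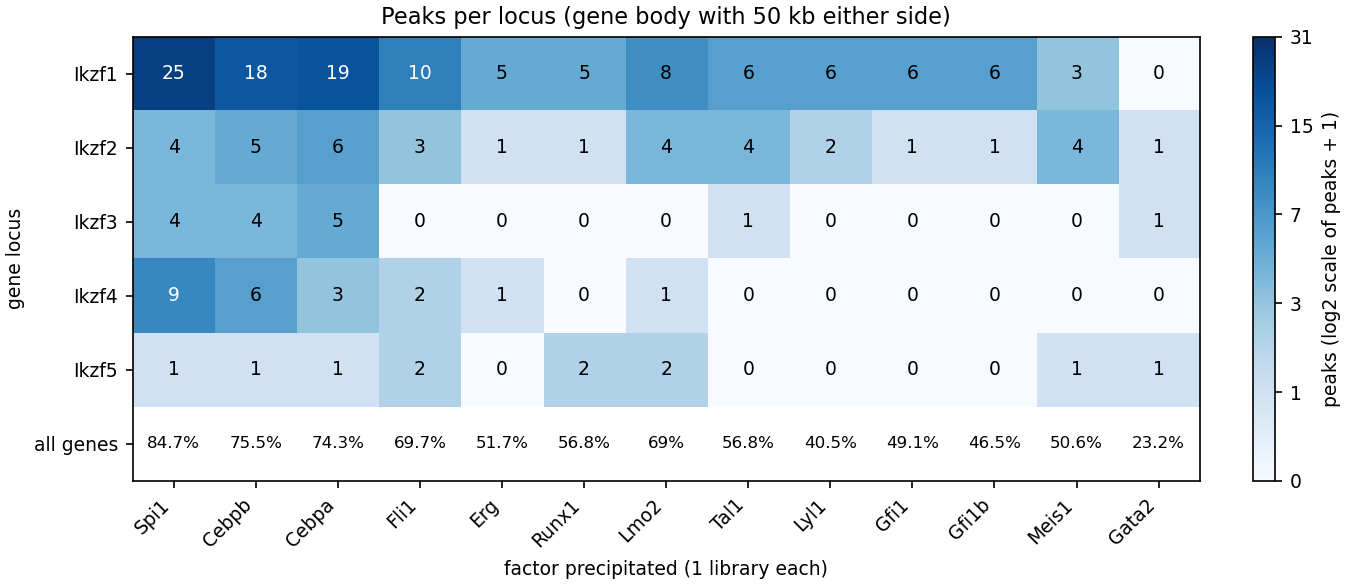
Number of peaks in each of the 5 loci (rows) for each of the 13 factors (columns, 1 library each), with colour on a log2 scale of peaks + 1. The bottom row gives the percent of all protein-coding loci with a peak of that factor. Ikzf1 has the highest count for 11 factors, Meis1 is highest at Ikzf2 with 4 peaks, and the Ikzf1 row is at 0 for Gata2.

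A longer locus catches more peaks, so each member was set beside genes whose locus length lay within 20% of its own. Ikzf1 lay far above such genes, Ikzf2 and Ikzf4 near their median and Ikzf3 and Ikzf5 below it. The Ikzf1 locus (188 kb) held 117 peaks, against a median of 28 over 3091 genes of like length, of which 40 (1.29%) had as many or more. The Ikzf2 locus (256 kb) held 37 peaks against a median of 32, and 44.3% of 1341 like genes had as many. For Ikzf4 (139 kb) the 22 peaks stood against a median of 23, and 53.6% had as many. For Ikzf5 (122 kb) the 11 peaks stood against a median of 19, and 65.6% had as many. For Ikzf3 (181 kb) the 15 peaks stood against a median of 27, and 72.6% had as many. Expressed per 100 kb, the density was 62.2 peaks at Ikzf1, 14.4 at Ikzf2, 8.27 at Ikzf3, 15.8 at Ikzf4 and 9.03 at Ikzf5, against 15.8 at the median protein-coding locus. The Ikzf1 density was higher than that of 97.1% of protein-coding genes. Numbers of factors were set beside the same genes of like length. As many factors or more were found at 28.5% of those for Ikzf1 and at 10.2% for Ikzf2. For Ikzf3, Ikzf4 and Ikzf5 the share was 83.2%, 76.1% and 55.7%.

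**Figure D2:**
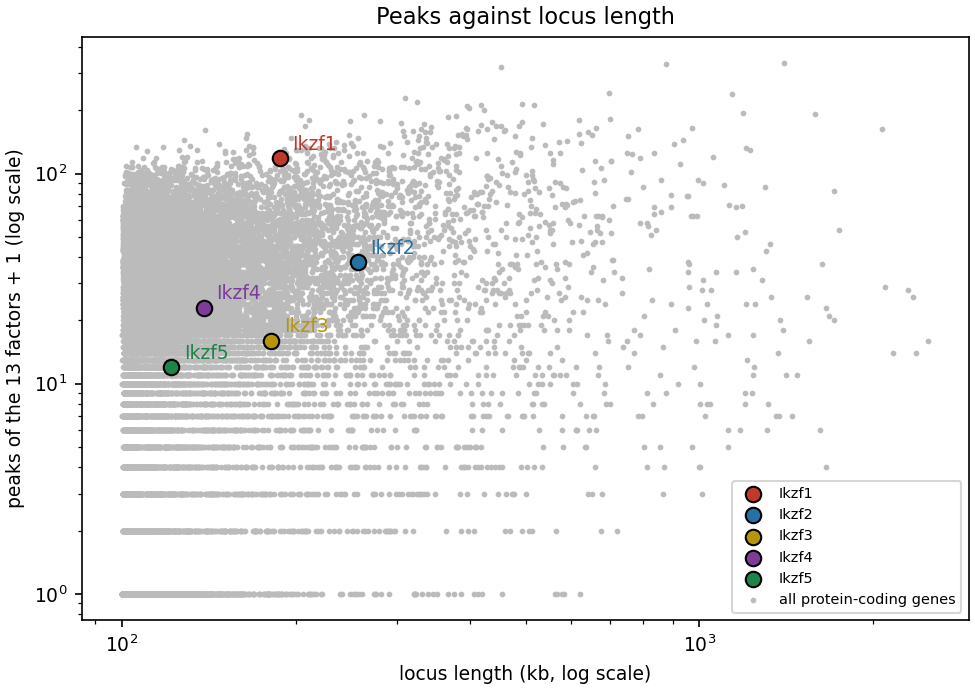
Peaks of the 13 factors plus 1 against locus length in kb, both on log scales, for the 5 members (large coloured points) and for all protein-coding genes (small grey points). Ikzf1 lies at the upper edge of the cloud for its length with 117 peaks, while the other 4 members lie within it.

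Ikzf1 (gene ID 22778, chr11:11684962-11772930) carried binding inside the gene and on both sides of it, and the longest stretch of its locus without a peak was 21.4 kb. Of its 117 peaks, 55 lay in the gene body and 62 in the flanks, which is 62.5 peaks per 100 kb in the body and 62 per 100 kb outside. The peaks formed 37 regions, of which 13 held 1 factor, 16 held 2 to 5 and 8 held 6 or more. Spi1, an ETS factor needed for lymphoid and myeloid cells, had 25 peaks there, and the C/EBP factors of granulocytes and monocytes had 19 (Cebpa) and 18 (Cebpb). The ETS factor Fli1 had 10 peaks and the bridging protein Lmo2 had 8. The basic helix-loop-helix factors Tal1 and Lyl1 and the repressors Gfi1 and Gfi1b had 6 each, Runx1 and Erg had 5 each, the homeobox factor Meis1 had 3 and Gata2 had 0. The nearest Gata2 peak lay 121 kb outside the gene.

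Beside genes of like length the C/EBP counts at Ikzf1 were the most unusual. As many Cebpa peaks were found at 0.356% of those genes, and as many Cebpb peaks at 0.906%. The share with as many was 1.2% for Gfi1b, 1.71% for Gfi1, 2.23% for Spi1, 2.33% for Lyl1, 2.78% for Fli1 and 3.98% for Erg. For Runx1, Tal1, Lmo2 and Meis1 it was 7.28%, 7.99%, 11.7% and 17.7%.

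The most shared regions of the Ikzf1 locus lay below the gene, that is at lower coordinates, on the side of its start. The first, chr11:11656175-11656733, held 11 factors and was centred 28.5 kb below the lower gene boundary. It lacked Gata2 and Gfi1b. The second, chr11:11657052-11657612, held 11 factors as well, lay 27.6 kb below the gene, and lacked Gata2 and Lmo2. Only 318 bases separated this pair. Regions with 11 or more factors made up 1.27% of all merged regions (1545 in number), and 10.3% of protein-coding loci held one. Of the genes of like locus length, 13.2% held one. No other protein-coding gene boundary was nearer to either region than that of Ikzf1. The combination in the second is rare, since 3 merged regions had exactly those 11 factors, while 217 had exactly the factors of the first.

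Within the gene, 2 regions near its far end were shared most. At chr11:11763262-11763793, 9.40 kb inside the upper boundary, lay 9 factors, with Gata2, Gfi1b, Meis1 and Runx1 missing. At chr11:11766057-11766584, 6.61 kb inside, lay Cebpa, Cebpb, Lmo2, Lyl1, Runx1, Spi1 and Tal1. A region with 6 factors lay in the middle of the gene at chr11:11730030-11730585 (Cebpa, Cebpb, Fli1, Lmo2, Meis1 and Spi1). Whether these are exonic or intronic was not analysed here, since the gene table used has no exons. The 3 further regions with 6 factors lay 17.3 kb and 5.79 kb below the gene and 36.2 kb above it. The last of these, chr11:11808737-11809434, was 0.102 kb from the boundary of Fignl1, a gene of DNA repair, and is nearer to that gene than to Ikzf1.

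**Figure D3:**
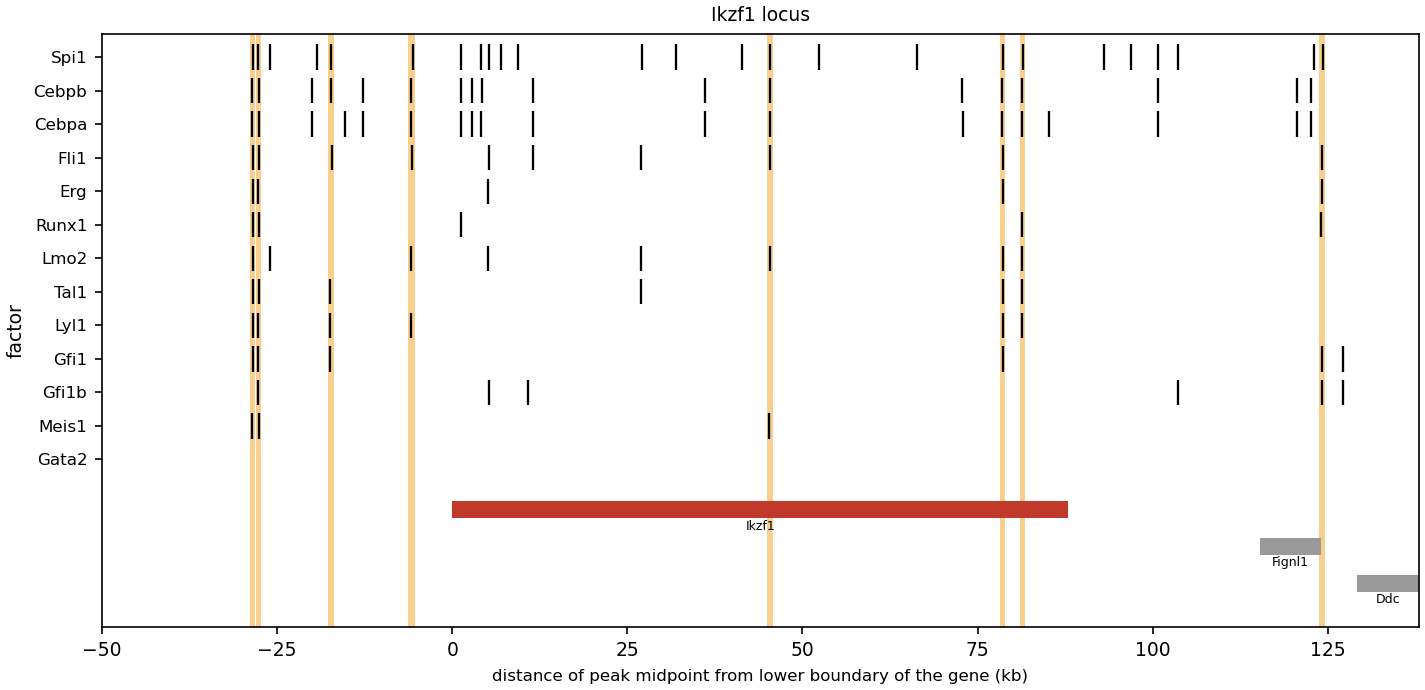
Map of the Ikzf1 locus, with each peak midpoint drawn as a tick by factor (rows) against its distance in kb from the lower gene boundary. Orange bands are the 8 regions with 6 or more factors, and bars show Ikzf1 (red) and the neighbours Fignl1 and Ddc (grey). The pair of regions with 11 factors stands about 28 kb below the gene, and the Gata2 row is empty.

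Both annotated starts of Ikzf1 had peaks within 1 kb, but of different factors. At the first (position 11685925) were Cebpa, Cebpb, Runx1 and Spi1, merged into chr11:11685951-11686431, just inside the gene. At the second (position 11690177) were Erg, Fli1, Gfi1b, Lmo2 and Spi1, merged into chr11:11689925-11690460, and a Cebpb peak farther off. Spi1 and Cebpb had a peak within 1 kb of each start. The window of the first start (chr11:11685675-11685974) was 81.3% G and C and held no GGAA, and of the 4 peaks only that of Runx1 reached into it, by 24 bases. The window of the second was 49% G and C.

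The second start is the one whose sequence is printed above. Its 300 bases held 6 copies of GGAA on either strand, and 15.8% of all 32619 promoter windows held as many or more. At least 1 copy is near universal, being found in 96.0% of windows. The Erg midpoint fell on the copy at bases 197 to 200 of the window and the Lmo2 midpoint on that at bases 210 to 213. The Fli1 midpoint lay 9 bp from the centre of the second of these, while those of Spi1 and Gfi1b lay 84 and 102 bp from the nearest copy in the window. The Spi1 and Gfi1b midpoints fell outside the window, and the bases around them were not searched. Erg, Lmo2 and Fli1 midpoints lay 53, 39 and 30 bases before the start, and those of Spi1 and Gfi1b 65 and 83 bases after it. Copies begin at bases 181, 197, 210 and 230 of the window, so any midpoint among them lies close to one. Whether these midpoints lie nearer than that was not tested. The window held no match to the other motifs searched on both strands. Those were GAGGAA for PU.1 (in 28.2% of all windows), TGTGGT for Runx (16.6%), GATA (57.7%) and CANNTG, the E-box (72.3%). The remaining ones were TTGCNNAA for C/EBP (10.9%), TGACAG for Meis (18.9%) and AATCAC for Gfi (10.4%). GAGGAA contains GGAA, so those matches overlap. An Erg or Fli1 midpoint lay in 23.4% of the 5148 windows with 6 or more copies, against 11.6% of all windows. Windows of 1 gene or of neighbouring genes can overlap and were each counted.

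Ikzf2 (gene ID 22779, chr1:69531207-69687351) had a peak of every factor, but few of each. Its 37 peaks formed 13 regions, 7 of them with a single factor. The counts were 6 for Cebpa, 5 for Cebpb, 4 each for Spi1, Lmo2, Tal1 and Meis1, 3 for Fli1, 2 for Lyl1 and 1 each for Erg, Runx1, Gfi1, Gfi1b and Gata2. Spi1 was low for the length of the locus, with 4 peaks against a median of 10 over like genes, of which 81.5% had 4 or more. Meis1 was on the high side, with 4 against a median of 2, and 17.5% of like genes had as many. No other protein-coding gene lay in this locus.

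Peaks at Ikzf2 were denser outside the gene than inside it, with each factor on a shared region counted. The gene body held 8.97 peaks per 100 kb and the flanks 23. Most flank peaks came from regions with 10, 7 and 3 factors below the gene, so the contrast is not one of separate sites. The most shared region, chr1:69513517-69513988, held 10 factors 17.5 kb below the gene and lacked Gata2, Gfi1b and Meis1. Regions with 10 or more factors were 2.32% of all merged regions, and 17.4% of protein-coding loci had one. Of the genes of like locus length, 26.2% had one. The only Erg, Runx1 and Gfi1 peaks of the Ikzf2 locus were in its region with 10 factors. At chr1:69495994-69496486, 35.0 kb below the gene, lay 7 factors (Cebpa, Cebpb, Fli1, Lmo2, Lyl1, Spi1 and Tal1). Inside the gene chr1:69654881-69655398 held 6 (the same without Lyl1).

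The lone peaks at Ikzf2 were 1 of Spi1 and the rest of Meis1, Gfi1b and Gata2, none of which was found in a shared region there. All 4 Meis1 peaks were alone, 3 of them in the gene body and 1 at 2.41 kb below it. The single Gfi1b peak was alone at chr1:69686965-69687364, with its centre 0.186 kb inside the upper boundary. The single Gata2 peak was alone 39.7 kb above the gene. Over all merged regions with Meis1, 41.5% held no other factor, and over those with Gata2 70.5%, but over those with Gfi1b 9.21%.

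Ikzf3 (gene ID 22780, chr11:98464610-98546031) had peaks of 5 factors, namely 5 of Cebpa, 4 of Cebpb, 4 of Spi1, 1 of Tal1 and 1 of Gata2. Of 3418 genes of like length, 83.2% had 5 or more factors. Erg, Fli1, Runx1, Lmo2, Lyl1, Gfi1, Gfi1b and Meis1 had no peak in the locus. Their nearest peaks lay between 64.2 kb (Erg) and 165 kb (Meis1) outside the gene. No region held more than 2 factors, and all 4 shared regions held Cebpa with Cebpb and nothing else. A region with 2 or more factors was present in 79.3% of protein-coding loci and one with 3 or more in 72.8%. Of the 3418 genes of like length, 88.9% had a region with 2 or more.

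Of the 15 peaks around Ikzf3, 10 lay in the flanks. Per 100 kb the flanks held 10 peaks and the gene body 6.14. The gene body had 5 peaks, which made up the Cebpa and Cebpb regions chr11:98476386-98476826 and chr11:98481284-98481690, and 1 Spi1 peak. The other 2 Cebpa and Cebpb regions lay in Mien1 and 0.183 kb from the boundary of Ormdl3. The Gata2 peak lay inside Mien1, 7.59 kb from Ikzf3. A stretch of 39.4 kb without a peak reached from 46.9 kb inside the gene to beyond its upper boundary.

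Ikzf4 (gene ID 22781, chr10:128630839-128669671) had peaks of 6 factors, namely 9 of Spi1, 6 of Cebpb, 3 of Cebpa, 2 of Fli1, 1 of Erg and 1 of Lmo2. Runx1, Tal1, Lyl1, Gfi1, Gfi1b, Meis1 and Gata2 had none. Only 3 of the 22 peaks were in the gene body, a Cebpa and Cebpb region at chr10:128653814-128654225 and 1 Spi1 peak. Per 100 kb the body held 7.73 peaks and the flanks 19. The locus is crowded, with Erbb3, Rps26, Suox, Rab5b, Pmel and Cdk2 inside it.

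The most shared region near Ikzf4, chr10:128626428-128627014, held all 6 of its factors. Its centre lay 4.12 kb below Ikzf4, but 0.215 kb from the boundary of Rps26, on the Rps26 promoter window printed above. A region with 6 or more factors was present in 49.4% of protein-coding loci and in 54% of those of like length. The window held 7 copies of GGAA, and 8.08% of all windows held as many or more. The Fli1 midpoint lay 3 bp from the centre of the copy at bases 2 to 5 of the window and the Lmo2 midpoint 5 bp from that at bases 13 to 16. How near a midpoint lies to a copy by position alone was not tested. Of the other ETS factors, the Erg midpoint lay 27 bp from the centre of the nearest copy. The Spi1 midpoint lay outside the window, 60 bp from the nearest copy in it, and the bases around that midpoint were not searched. The window also held GATA at 2 places, 1 on each strand, and no TTGCNNAA, although Cebpa and Cebpb midpoints lay in it. The second most shared region, with Cebpb, Fli1 and Spi1, lay 0.143 kb from the boundary of Cdk2.

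Ikzf5 (gene ID 67143, chr7:131388649-131410518) had no peak in its gene body. Its 11 peaks, in 6 regions, came from 8 factors, with 2 each of Fli1, Lmo2 and Runx1 and 1 each of Cebpa, Cebpb, Spi1, Meis1 and Gata2. Erg, Gfi1, Gfi1b, Lyl1 and Tal1 had none, and their nearest peaks were distant, from 108 kb for Tal1 to 869 kb for Erg. The most shared regions held 3 factors, Fli1, Lmo2 and Runx1, at both chr7:131370984-131371423 and chr7:131362483-131362926. They lay at the boundaries of Pstk and 2310057M21Rik, at 0.0905 kb and 0.139 kb from them. Exactly this trio was found in 76 of all merged regions (0.0623%), of which these are 2. Its repeat within 1 locus was picked out after the values were seen.

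At the Ikzf5 start itself were Cebpa and Cebpb, in chr7:131410491-131410891, and a Spi1 peak within 1 kb. The Cebpa and Cebpb midpoints lay 212 and 213 bases before the start of Ikzf5, and 89 and 90 bases after that of Acadsb, an acyl-CoA dehydrogenase gene that starts close by on the other strand. In the sequence above, both fell on TTGCGCAA at bases 37 to 44 of the window, chr7:131410685-131410692. These letters were found in 60 of the 32619 promoter windows (0.184%), whereas the looser TTGCNNAA, which contains them, was in 10.9%. The window has a second TTGCNNAA match, at bases 193 to 200, with its centre 157 bp from the Cebpa midpoint. A Cebpa or Cebpb midpoint lay in 48 of the 60 windows with TTGCGCAA (80%), against 9.59% of all windows. The 8-base form was searched after the sequence had been seen, and a match is a description of letters, not a shown site.

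**Figure D4:**
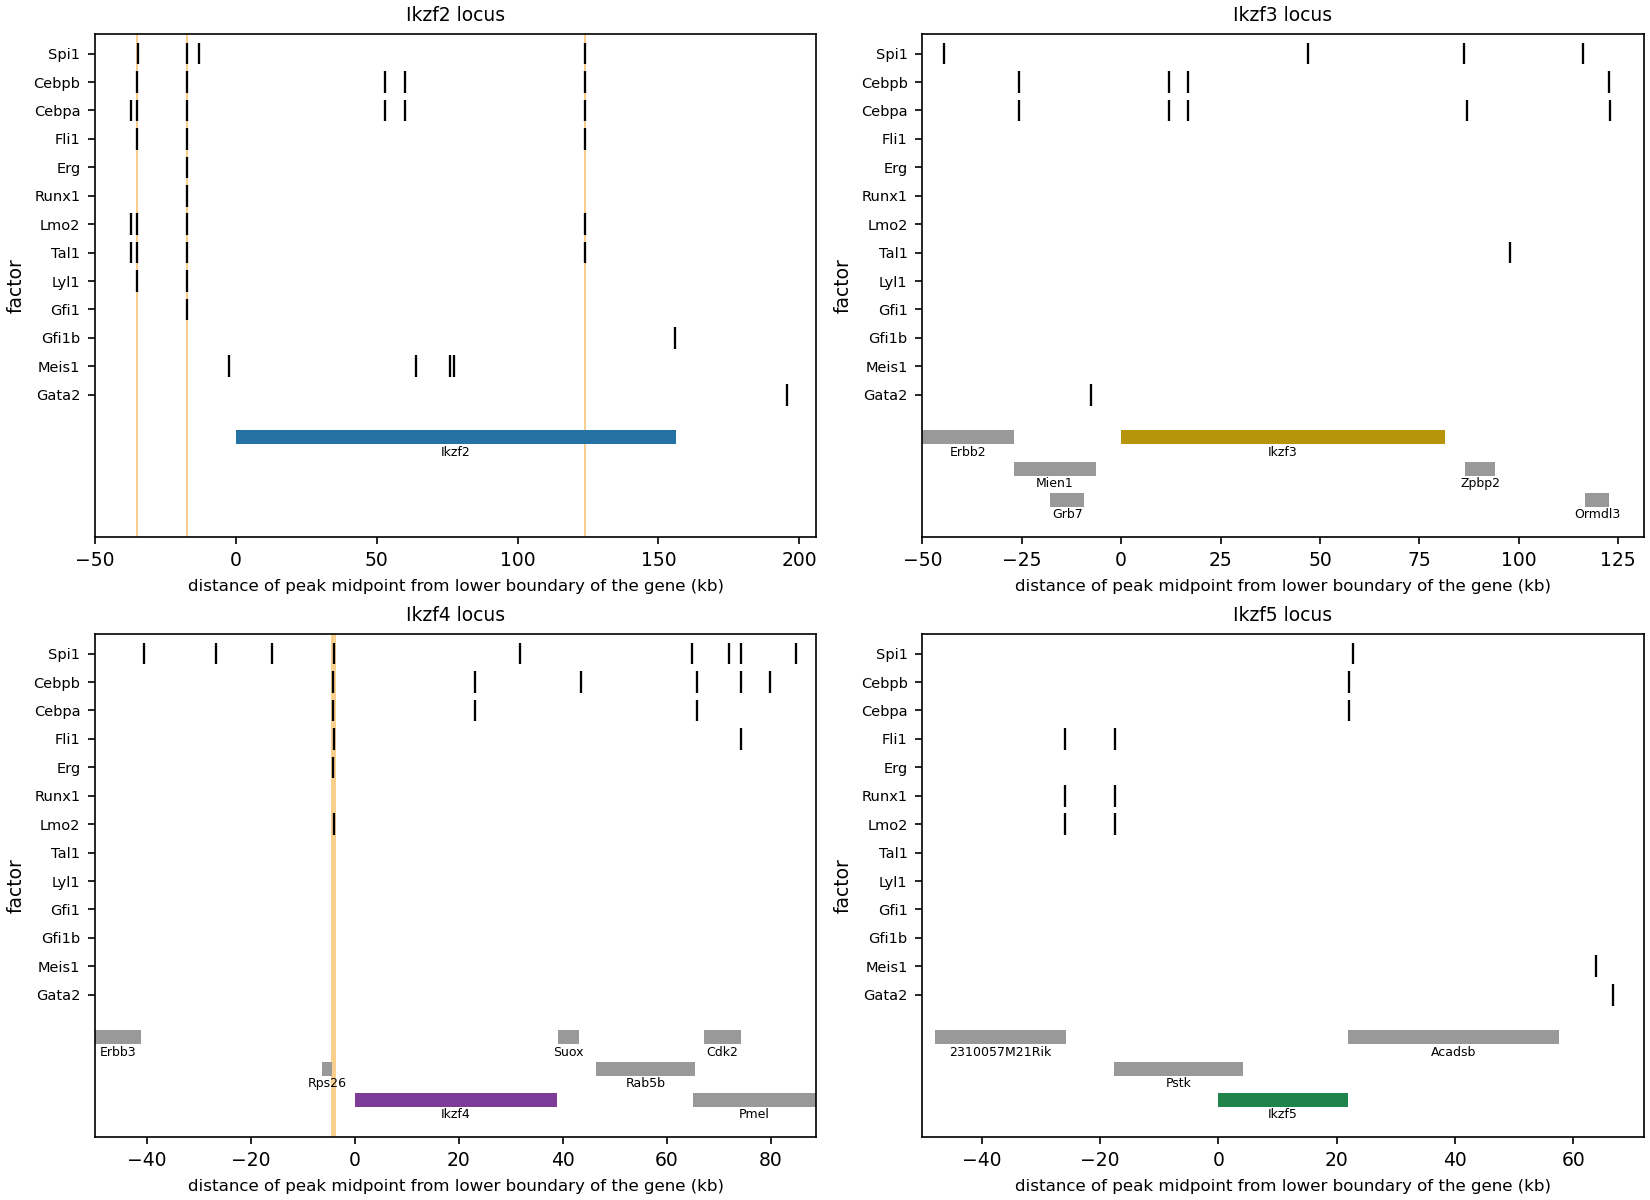
Maps of the Ikzf2, Ikzf3, Ikzf4 and Ikzf5 loci, with peak midpoints as ticks by factor (rows) against distance in kb from the lower gene boundary, and genes as bars (the member in colour, neighbours in grey). Orange bands are regions with 6 or more factors, of which Ikzf2 has 3, Ikzf4 has 1 and the other 2 loci have none.

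By factor, Spi1, Cebpa and Cebpb had a peak at 5 of the 5 loci, and they are also the factors with the widest reach (84.7%, 74.3% and 75.5% of protein-coding loci). Fli1 and Lmo2 reached 4 of 5 loci (69.7% and 69% of all). Erg, Runx1, Tal1, Meis1 and Gata2 reached 3 of 5 (51.7%, 56.8%, 56.8%, 50.6% and 23.2% of all). Lyl1, Gfi1 and Gfi1b reached 2 of 5, Ikzf1 and Ikzf2 (40.5%, 49.1% and 46.5% of all). With 5 loci, 1 locus more or less moves a share by a large step. The 3 Gata2 peaks were all alone, so Gata2 was absent from the 41 shared regions, and at Ikzf1 and Ikzf4 no Gata2 peak was called.

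Regions were also counted by kind in each member. Those with Cebpa, Cebpb or both and no other factor were 9 of 37 at Ikzf1, 2 of 13 at Ikzf2, 5 of 11 at Ikzf3, 4 of 13 at Ikzf4 and 1 of 6 at Ikzf5, against 15.2% of all merged regions. Regions with Tal1, Lyl1 or Lmo2 were 10 of 37 at Ikzf1, 4 of 13 at Ikzf2 and 1 of 11 at Ikzf3. They were 1 of 13 at Ikzf4 and 2 of 6 at Ikzf5. Of all merged regions, 25.3% were of this kind. Regions with Spi1 alone were 10 of 37 at Ikzf1, 1 of 13 at Ikzf2, 4 of 11 at Ikzf3, 7 of 13 at Ikzf4 and 1 of 6 at Ikzf5, against 36.6% of all merged regions. These differences were not tested.

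Over the 80 regions of the 5 loci, 41 (51.2%) held 2 or more factors, against 43.7% of all merged regions. Cebpa and Cebpb were the pair seen together most. They shared 30 regions, which is 88.2% of the 34 regions with Cebpa and 88.2% of the 34 with Cebpb. For Cebpa the exact 95% interval was 72.5 to 96.7, counting error only. It treats regions as independent, although 19 of the 34 Cebpa peaks lay in the Ikzf1 locus. Over all merged regions the shares were 82.5% and 76.6%. Fli1 and Spi1 shared 14 regions, 82.4% of those with Fli1 and 32.6% of those with Spi1, against 78.5% and 22.6% over all merged regions. Fli1 and Lmo2 shared 12, 80% of those with Lmo2 and 70.6% of those with Fli1, against 55.6% and 67.4%. All 7 regions with Erg also held Fli1 and Spi1, against 95.8% and 81.3% of all merged regions with Erg. All 8 with Lyl1 held Cebpb and Spi1, against 69.1% and 77.1% of all those with Lyl1. Other pairs lay below their share over all merged regions. Gfi1 and Gfi1b shared 3 regions, 42.9% of those with each, against 63.0% of all with Gfi1 and 68.9% with Gfi1b. Lmo2 lay in 75%, 71.4% and 14.3% of the regions with Lyl1, Erg and Gfi1b, against 97.0%, 83.0% and 52.4%. The pairs named are not all pairs, and no difference was tested.

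Where Cebpa and Cebpb shared a region their midpoints nearly coincided. The median distance was 14.5 bp over the 30 regions (range 1 to 216), against 14 bp over 28877 such regions in all, and in 17 of the 30 it was 20 bp or less. Lyl1 and Tal1 midpoints lay a median of 14 bp apart over 7 regions, against 22 bp in all, and Erg and Fli1 23 bp over 7, against 21 bp. Fli1 and Spi1, both ETS factors, lay 48 bp apart over 14 regions (30 bp in all). Cebpb and Spi1, of different families, lay 82 bp apart over 15 (59 bp in all).

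Single regions differed in this. In the first 11-factor region of Ikzf1, Cebpb, Cebpa and Meis1 midpoints lay 115, 109 and 102 bp on the lower side of the median midpoint. The other 8 lay within 44 bp of it, with Erg at the median itself. In the 9-factor region inside Ikzf1, Cebpb and Cebpa again lay together, 97 and 82 bp below the median, and the other 7 within 36 bp of it. In the second 11-factor region the C/EBP midpoints lay 19 and 30 bp above the median, and Meis1 lay farthest off, 98 bp above. In the 10-factor region of Ikzf2 the midpoints of all 10 spanned 72 bp, with no C/EBP offset of that kind.

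**Figure D5:**
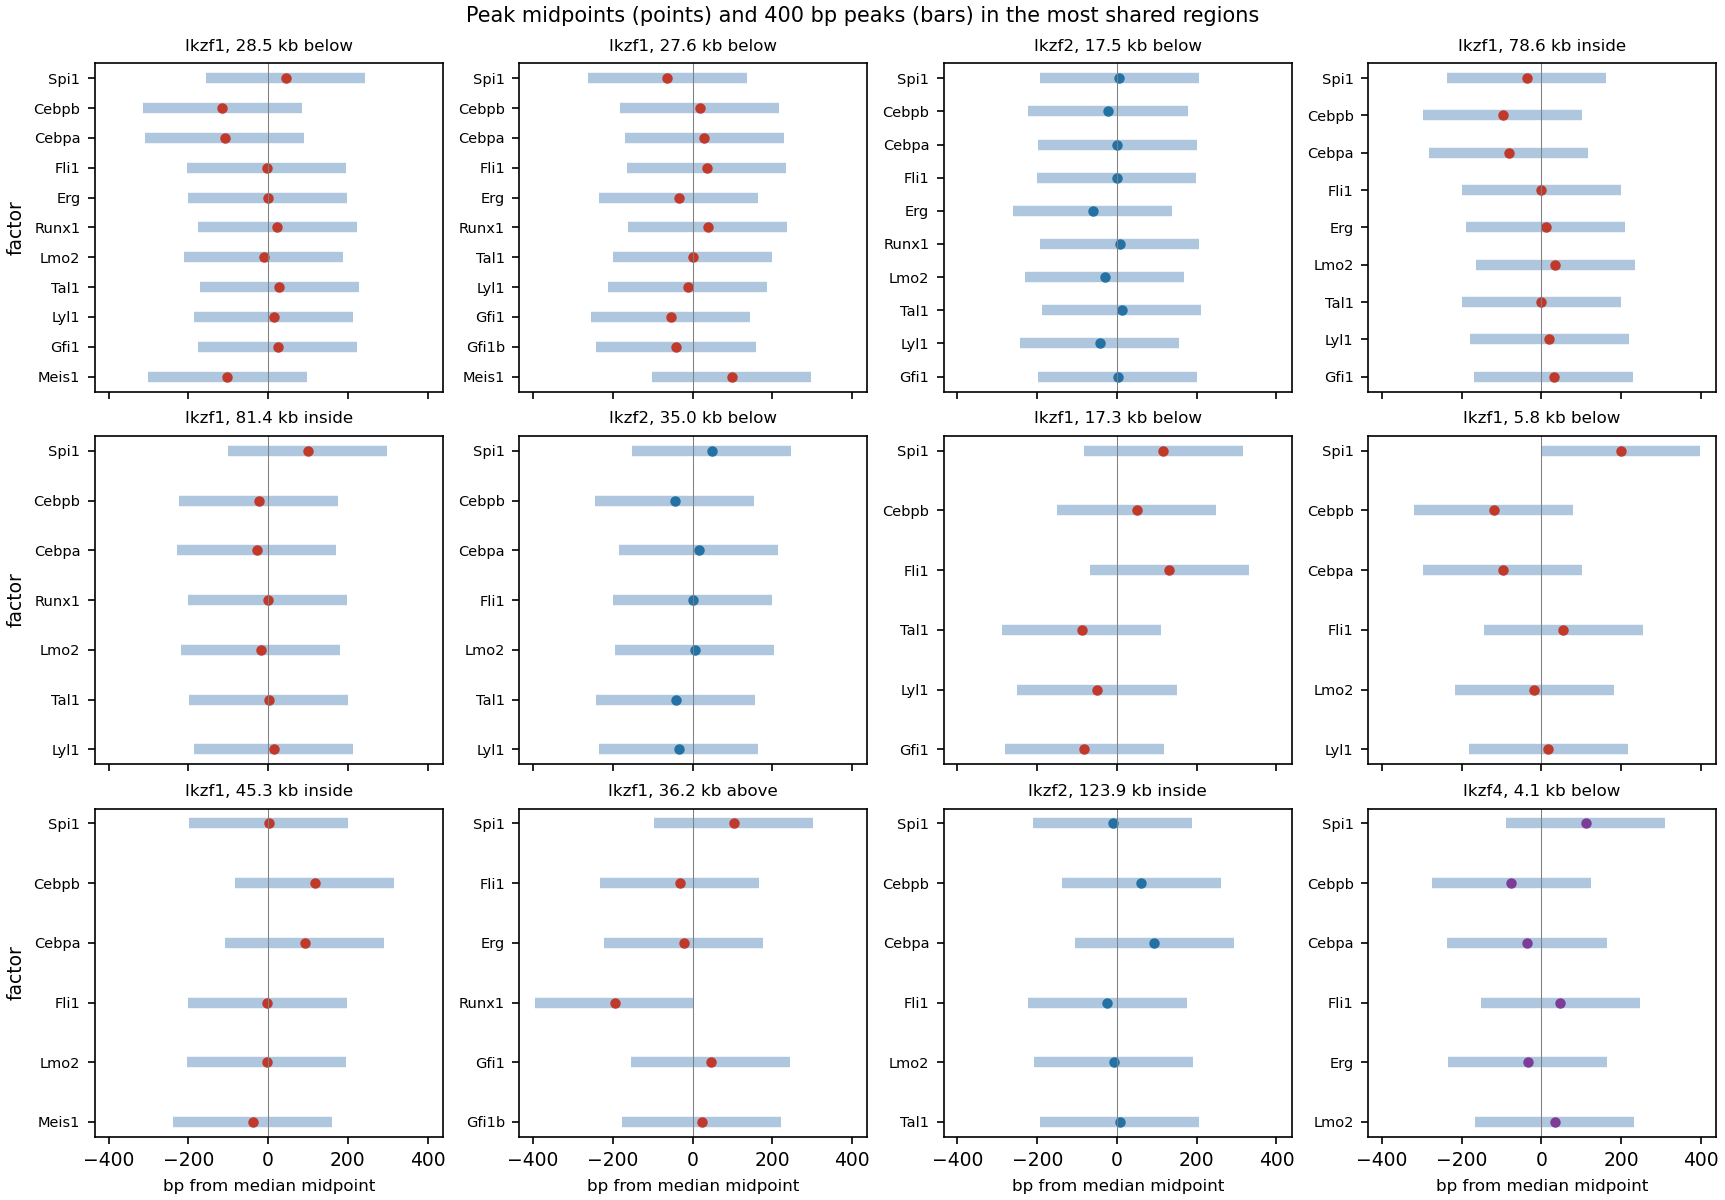
Peak midpoints (points) and the 400 bp peaks (bars) of each factor, in bp from the median midpoint, in the 12 regions with 6 or more factors, titled by gene and distance from its boundary. Cebpa and Cebpb points lie 4 to 60 bp apart in the regions that have both, and in the region 28.5 kb below Ikzf1 they lie over 100 bp from most others.

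Likeness between loci was measured as Pearson's r of log2(peaks + 1) over the 13 factors. The 13 points share the lengths of the lists, so long lists are high in most loci and r is a description only. Among members it was highest for Ikzf1 and Ikzf4 (0.765) and for Ikzf3 and Ikzf4 (0.751), and lowest for Ikzf1 and Ikzf5 (0.121). The genes most like Ikzf1 were Prcc (0.981), Ern1 (0.980) and Gm46963 (0.980), and 974 of 15230 genes compared had r above 0.9. For Ikzf2 they were Klhl2 (0.981), AY761185 (0.980) and Olfr68 (0.977), with 92 genes above 0.9. For Ikzf3 they were Rab33a (0.984), Klrb1c (0.964) and Asb11 (0.950), with 46 above 0.9. For Ikzf4 they were Aoc2 (0.987), Psme3 (0.983) and Ccpg1os (0.982), with 679 above 0.9. For Ikzf5 only Prmt7 (0.955) was above 0.9, followed by Gm11127 (0.874) and Dcaf1 (0.851).

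Genes that work with or under Ikaros were counted in 5 lists of 42 genes in all. Of these, 17 had peaks of 12 or more factors, against 2 of the 5 family members and 21.9% of all protein-coding genes. The list counts and medians were not matched for locus length, and neighbours such as Rag1 and Rag2 were each counted. Of 13 NuRD genes, the remodelling and deacetylase complex that Ikaros recruits, 4 had 12 or more, and the median was 10. Mta3 had 13 factors and 101 peaks, Chd3 12 and 66, and Gatad2a 12 and 57, while Rbbp7 had 8 and 18 and Hdac2 had 2 and 4. Chd4 had 10 factors and 63 peaks. Of the 4 other corepressor genes, Ctbp2 had 13 factors, Sin3a 12, Sin3b 11 and Ctbp1 5. Of the 5 cereblon ligase genes, Ddb1 had 12 factors, Rbx1 9, Cul4a 8, Crbn 7 and Cul4b 6.

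Genes known to be controlled by Ikaros had a median of 12 factors, the highest of the 5 lists and above the family's own median of 8. Flt3, a growth factor receptor of early progenitors, had 13 factors and 115 peaks, close to the 117 of Ikzf1. Dntt, which adds bases to antigen receptor joints, had 12 factors and 88 peaks. The recombination genes Rag1 and Rag2, neighbours that share a locus, had 12 factors and 55 peaks each. At the low end Il2 had 9 factors and 15 peaks and Cd8a 3 and 6. Of 11 genes in this list 7 had a region with 10 or more factors, against 17.4% of all protein-coding loci, but Rag1 with Rag2 and Igll1 with Vpreb1 are pairs of neighbours. Such a region was also found at 4 of 13 NuRD genes, 1 of 4 other corepressors and 1 of 5 cereblon ligase genes. It was found at 2 of 9 B lineage regulators and 2 of the 5 family members. Locus length was not matched here. Of 9 B lineage regulators 4 had 12 or more factors, and the median was 10. Ebf1 had 13 factors and 125 peaks, Bcl11a 13 and 30, and Bach2 12 and 116, while Pax5 had 8 and 21 and Pou2af1 8 and 11.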

How the data were processed

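Peak lists of 13 ChIP-seq libraries of Hoxb8-FL cells were used as the authors deposited them. A line names a chromosome and the 2 ends of a peak and carries neither score nor count, and every peak is 400 bp wide. Bowtie2, MACS2 and bedtools and the builds mm10 and GRCm38 are named in the submitters' processing notes, while, in the sources used here, their roles, versions and thresholds and any use of the IgG library are not given. The tallest part of a peak is not given, and its midpoint stood for its place. Only the 19 autosomes and chromosome X were kept, and 3 lines elsewhere were dropped. Genes, starts and promoter windows came from RefSeq tables of GRCm38.p6, and 2 of the 5 members have promoter windows there. The gene table has no exons. For members without a listed start, both boundaries took its place.

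Peaks that touched or overlapped were merged, and a region belonged to a locus if a peak of it had its midpoint there. Coordinates count from 1. Distances from a midpoint to the centre of a motif were cut down to whole bp. Python 3.11.15 with pandas 2.3.3 and numpy 2.4.6 was used, and the counting was checked on simulated peaks. Members, lists and most settings were chosen with earlier results of these data known. The rule for named genes took all members and the 5 regions of each locus with the most factors. From each list it took the 3 genes with the most factors and the 2 with the fewest. It also took the 3 genes most like each member by r. These had 10 or more peaks and a locus not overlapping the member's. Chd4, Rag2, Igll1, Vpreb1, TTGCGCAA, and regions past the fifth of a locus were named outside this rule, after their values were seen.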

Additional observations from a re-analysis of the deposited data

How the results depend on the processing

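The first 50% of the lines of each list stood in for a stricter threshold, since no score is given and the meaning of the order is not stated. With it 43 regions remained in the 5 loci, and 42 with 10 kb either side of the gene, against 80 as reported. With the first 50% of the lines, 100% of the regions with Cebpa also held Cebpb, against 88.2%, and the alternatives for this pair were chosen after the data were seen. Of the 42 list genes, 9 had 12 or more factors with the first 50% of the lines and 10 with 10 kb, against 17. The share of all protein-coding genes was not worked out in these settings. These counts therefore cannot be set against the share given for the main setting.

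For single members, Ikzf2 had 8 factors, not 13, with 10 kb, with the first 50% of the lines, or with 2 peaks required of each factor, and its most shared region then held 6 factors in the first 2 of these. Ikzf5 had 3, 4 and 3 factors, not 8, in the same settings. With 100 kb Ikzf3 had 9 factors, 28 peaks and 18 regions, against 5, 15 and 11 as reported, and Ikzf4 had 10 factors, 55 peaks and 26 regions, against 6, 22 and 13. Ikzf4 then had more peaks than Ikzf2, which had 42. Ikzf3 had the fewest factors as reported, but Ikzf5 had fewer with 10 kb (3, and 4 at Ikzf3) and with 100 kb (8, and 9 at Ikzf3). Both had 4 with the first 50% of the lines and 3 with 2 peaks required. Without the Spi1 list Ikzf3 and Ikzf4 had 7 and 6 regions. Ikzf1 had 63 peaks with 10 kb and 69 with the first 50% of the lines, the most of the 5 in each. In all, 40 of 170 values of single members and lists moved by more than 1.5 times, none under the other merging rules, under assignment by overlap, or without the Gata2 list. No paired analysis was possible because each factor has 1 library. Depth is unknown, which limits every absent peak.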
